A study of Mus musculus with 72 samples.

Results

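The 10 genes described here act in antigen presentation on major histocompatibility complex (MHC) class I molecules, and they were followed across radiation type, dose and day in mouse blood. They were chosen by name from the annotation of the arrays: the class I heavy chains H2-K1 and H2-D1, the light chain B2m, the peptide transporter subunits Tap1 and Tap2, tapasin (Tapbp), the immunoproteasome subunits Psmb8, Psmb9 and Psmb10, and the transactivator Nlrc5. All 10 were measured, among 16086 genes tested. Each gene is represented by its brightest detected probe, which was well above background on all 72 arrays and saturated on none. Levels are log2 signals minus the median of the detected probes of the same array, so a level of 0 is that median, and 1 unit is a doubling. Because probes differ in brightness, levels are compared between mice and not between genes.

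Class I molecules display peptides from inside the cell to CD8 T cells and are read by natural killer cells. The immunoproteasome, in which inducible catalytic subunits replace the constitutive ones, cuts proteins into peptides, the TAP transporter moves these into the endoplasmic reticulum, and tapasin holds the empty heavy chain at the transporter until a peptide is bound. A heavy chain is stable at the cell surface only together with beta-2 microglobulin. Interferons raise most of these genes together, and NLRC5 acts on class I promoters. In blood, lymphocytes carry much class I, whereas maturing red cells lose it.

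Male C57BL/6 mice, young adults, were exposed to 0.25 or 1 Gy of neutrons or to 1 or 4 Gy of x-rays, and blood was taken at day 1, 3 or 7. The paper describes cardiac puncture for days 1 and 7 and does not describe the day 3 mice. All groups had the same strain and sex. The controls of each day serve both radiations. Those the paper describes, of days 1 and 7, were sham-irradiated in holders on the wheel of the neutron source with the beam off. X-rays were given on a separate machine. The neutron beam came from an accelerator and carried a share of gamma rays. At days 1 and 7 there were controls and all 4 exposures, and at day 3 controls, 0.25 Gy neutrons and 1 Gy x-rays, with 5 or 6 mice in each of the 13 groups. RNA was that of whole blood after removal of globin transcripts, 1 mouse to an array.

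The number of mice, and the signal over background, limit the precision. Between 49.5 and 67.3% of the spots of an array were well above background in 12 groups, against 40.2 to 50.3% after 1 Gy neutrons at day 7. Among the 72, 3 arrays stood apart from the others of their group over all genes: 1 Gy x-rays at day 3 replicate 1 (median r with its group 0.869), 0.25 Gy neutrons at day 1 replicate 5 (0.897) and 1 Gy neutrons at day 1 replicate 4 (0.909). Comparisons with controls that rest on them are also given without them. No x-ray array shared a scan date with the controls of its day. Date and exposure therefore cannot be told apart in any comparison of x-rays with controls. Blood holds several cell types, and fewer cells of a type cannot be told apart from less RNA per cell. The paper reports no significant change in cell death or white cell makeup after irradiation. It gives total blood counts as normal at days 1 and 7. How the markers that follow relate to those counts was not tested. Some markers of the blood cell types differed from controls. At 4 Gy x-rays, day 1, all 8 tested B cell markers (median log2 change -4.24) and 6 of 8 erythroid markers (median -3.88) were lower. After 1 Gy neutrons at day 7, 6 of 8 B cell markers were lower (median -2.24), while 4 of 7 neutrophil markers (median 1.39) and 7 of 8 erythroid markers (median 2.85) were higher. Of 9 T cell markers, 5 were lower and 1 higher at the first of these and 3 lower at the second. Of 6 monocyte markers, 1 was higher and 1 lower, then 1 higher, and of 7 platelet markers none, then 1 higher. Of 7 natural killer cell markers none was called in either. Of 6 tested hepatocyte markers, 2 were higher at the first (median 4.21) and none was called at the second (median 1.36).

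Stretches of genome before the start of transcription are shown for the genes on which the comparisons turn, since H2-K1, H2-D1 and B2m are read from similar promoters and Tap1 and Psmb9 from a shared one. They are from RefSeq on GRCm38.p6, whose table holds 8 of the 10 genes, and are printed in the direction of the gene. Capitals mark matches, on either strand, to 4 motifs: kappaB (GGG, any 2 bases, TT, any base, CC), the core of the interferon-stimulated response element, ISRE (TTTCNNTT), the core of the cyclic AMP response element, CRE (TGACG), and the CCAAT box (CCAAT). No match printed overlaps another. The windows are chr17:34000348-34000597 on the minus strand for H2-K1, chr17:35262844-35263093 on the plus strand for H2-D1 and chr2:122147437-122147686 on the plus strand for B2m. Each is 250 bases long and ends at the base before a listed transcript start.
H2-K1: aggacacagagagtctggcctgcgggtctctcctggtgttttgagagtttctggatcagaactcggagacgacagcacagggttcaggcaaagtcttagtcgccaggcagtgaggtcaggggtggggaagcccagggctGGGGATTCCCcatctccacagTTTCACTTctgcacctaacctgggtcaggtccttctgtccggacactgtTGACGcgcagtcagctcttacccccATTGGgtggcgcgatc
H2-D1: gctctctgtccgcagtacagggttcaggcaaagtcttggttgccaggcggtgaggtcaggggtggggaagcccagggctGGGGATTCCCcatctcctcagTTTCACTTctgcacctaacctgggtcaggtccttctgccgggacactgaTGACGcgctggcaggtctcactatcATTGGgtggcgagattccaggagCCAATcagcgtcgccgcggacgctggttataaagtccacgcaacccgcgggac
B2m: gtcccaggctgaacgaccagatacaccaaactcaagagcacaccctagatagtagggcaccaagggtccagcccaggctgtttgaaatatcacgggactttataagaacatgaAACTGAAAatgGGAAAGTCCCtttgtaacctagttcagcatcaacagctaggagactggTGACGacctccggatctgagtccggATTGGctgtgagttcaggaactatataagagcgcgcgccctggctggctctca
Over 190 aligned bases, the H2-K1 and H2-D1 windows had 87.4% of bases the same. RefSeq lists a second H2-K1 start, at 34000333. The annotated span of the H2-K1 gene runs to 34000619, so the whole window printed lies inside it. A kappaB match and an ISRE core were in these 3 windows and in none of the other 5 genes, against 4.11% and 21.3% of all 32851 windows. A CRE core was in 5 of the 8 genes (17.8% of all windows), and a CCAAT box in 6 (33.8%). The windows of Psmb8 and Psmb10 held none of the 4, which says only that these letters are not in them.

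Tap1 and Psmb9 are transcribed away from each other, with 225 bases between their starts at chr17:34187331-34187555, printed here along Tap1.
Tap1 and Psmb9: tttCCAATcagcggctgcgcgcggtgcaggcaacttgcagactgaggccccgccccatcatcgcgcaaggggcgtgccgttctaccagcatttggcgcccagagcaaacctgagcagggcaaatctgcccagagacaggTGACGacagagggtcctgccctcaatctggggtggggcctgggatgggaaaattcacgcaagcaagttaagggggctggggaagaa
This stretch held 1 CCAAT box and 1 CRE core. On chromosome 17, Psmb9 (34182030 to 34187330), Tap1 (34187556 to 34197225), Psmb8 (34198195 to 34201454) and Tap2 (34204479 to 34216321) follow each other directly in that order among the members, with Tapbp (33919478 to 33929290), H2-K1 (33996012 to 34000619) and H2-D1 (35263094 to 35267497) on the same chromosome. B2m is on chromosome 2 (122147687 to 122153082), and Nlrc5 (94434335 to 94527272) and Psmb10 (105935728 to 105938392) are on chromosome 8. What an array measures is the 60 bases of its probe. These are shown for Tap1 and Psmb8, which like Tap2 differed between the radiations, with positions on mm9, the build of the array files.
Tap1 probe, chr17:34330854-34330913: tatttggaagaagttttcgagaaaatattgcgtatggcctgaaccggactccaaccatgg
Psmb8 probe, chr17:34337771-34337830: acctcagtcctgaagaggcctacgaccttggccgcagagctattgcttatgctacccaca

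Across all conditions, with each array centred on its median, the class I genes moved within narrow bounds. These bounds hold for that scaling only. With spike-in centring, H2-K1 after 1 Gy neutrons at day 7 differed from controls by -2.77 in log2 terms, where the median of all genes fell as well. The highest and the lowest of the 13 group means differed 2.15-fold for H2-K1, 2.06-fold for Nlrc5, 1.97-fold for Tap2, 1.92-fold for B2m, 1.91-fold for Psmb8, 1.84-fold for H2-D1, 1.83-fold for Tap1, 1.79-fold for Tapbp, 1.75-fold for Psmb9 and 1.69-fold for Psmb10. Over all genes tested the median was 2.95-fold, and between 8.02 and 27.6% of the genes had a smaller span than a given member. Of the 10, only B2m varied enough to pass the filter of the study's methods, a 1.5-fold departure from the median on 20% of arrays. With the group means in order, no neighbours among the 13 had ranges that failed to overlap, for any member. The ends of the orders were these. H2-K1, B2m and Psmb10 were highest at 4 Gy x-rays, day 1 (8.20 ± 0.13, 8.85 ± 0.32 and 4.68 ± 0.24, SD, n = 5), where Psmb8 and Psmb9 were lowest (2.85 ± 0.31 and 3.07 ± 0.44). Psmb8 and Psmb9 were highest at the same dose on day 7 (3.78 ± 0.10 and 3.88 ± 0.19, n = 6). H2-K1, Tapbp and Psmb10 were lowest after 1 Gy neutrons at day 7 (7.10 ± 0.28, 2.17 ± 0.19 and 3.92 ± 0.52, n = 6), while H2-D1 and Tapbp were highest after the same exposure at day 1 (7.28 ± 0.10 and 3.01 ± 0.27, n = 6). Tap1 and Tap2 were highest in the day 1 controls (-0.42 ± 0.19 and 3.49 ± 0.36, n = 5) and lowest after 0.25 Gy neutrons, Tap1 at day 3 (-1.29 ± 0.41, n = 6) and Tap2 at day 1 (2.52 ± 0.63, n = 6). The last of these groups holds an array that stood apart, and so does that with the lowest Nlrc5, 1 Gy x-rays at day 3 (2.15 ± 1.45, n = 5). Without that array, neither group would be lowest in its gene.

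**Figure D1:**
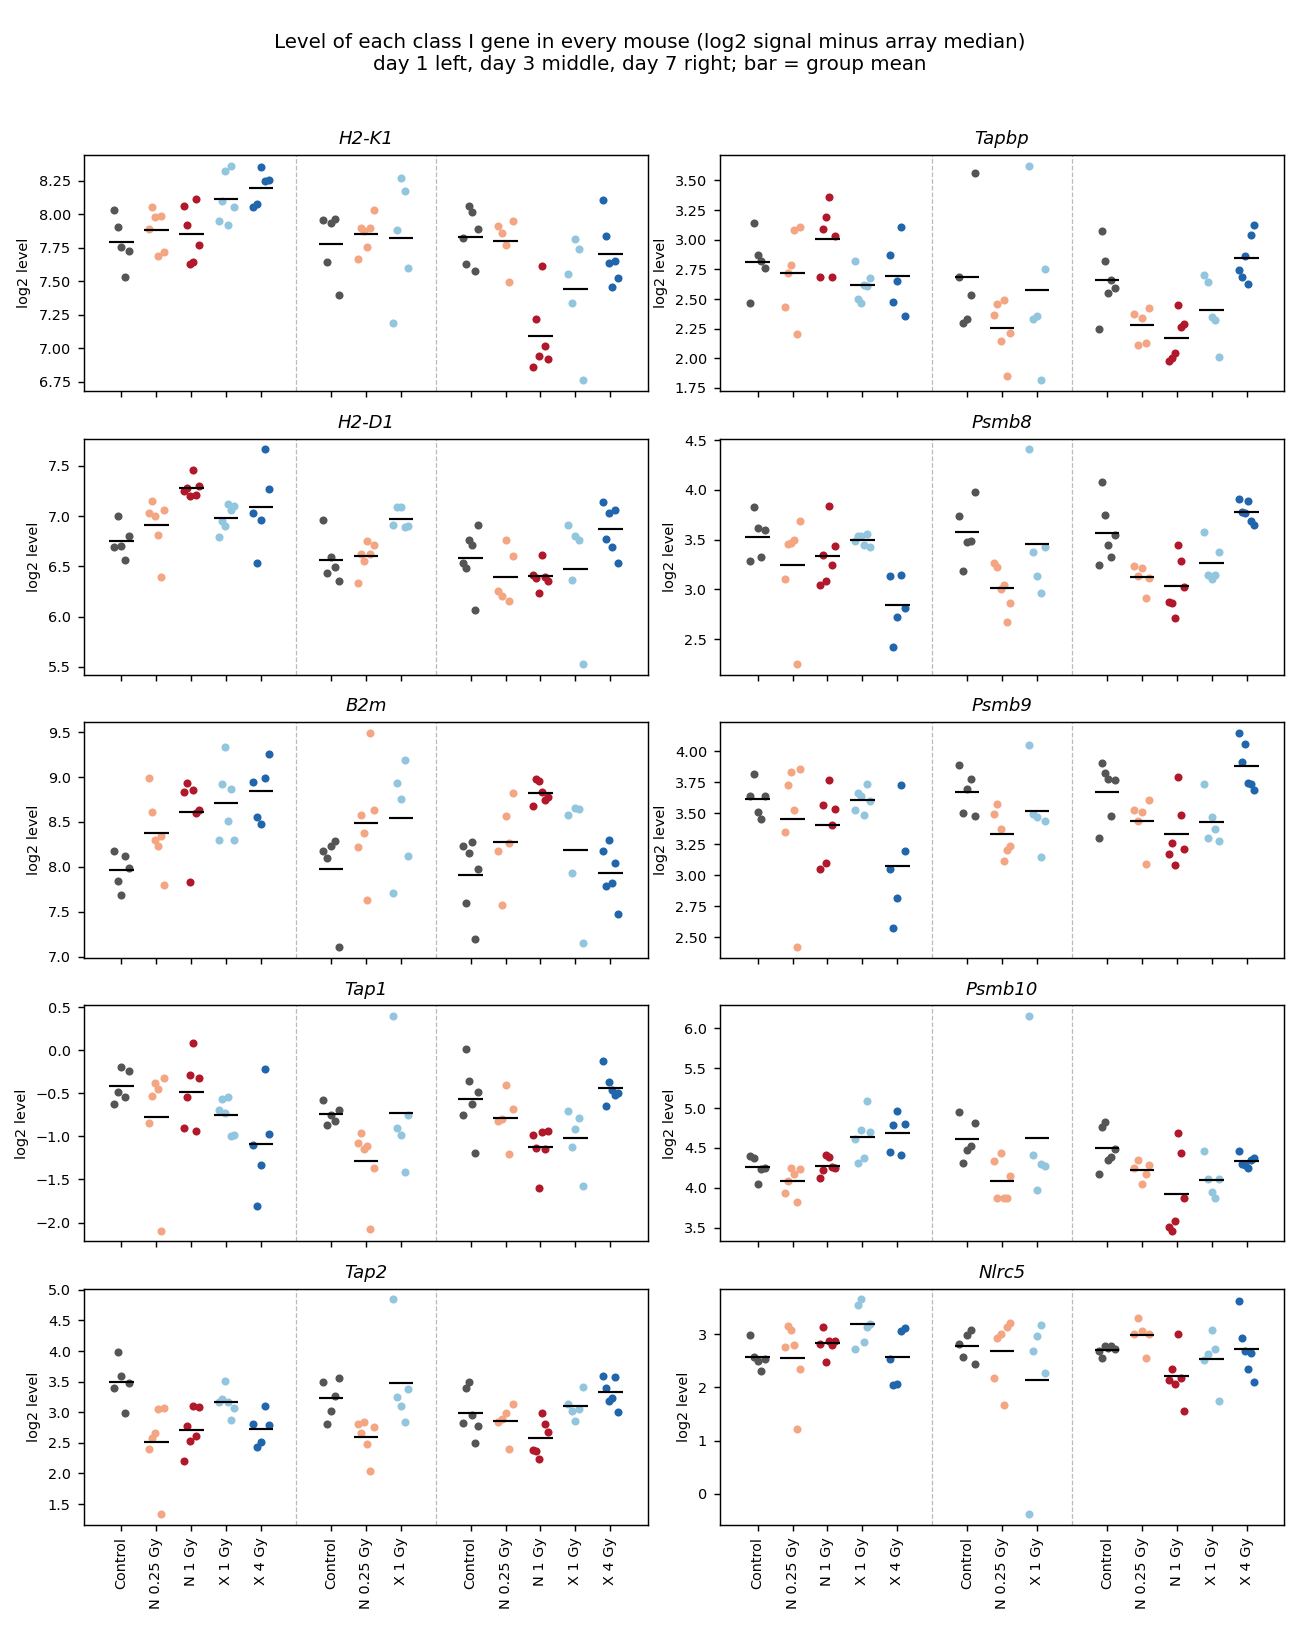
Level of each of the 10 genes in every mouse (log2 signal minus the median of the array, vertical axis) by group (N, neutrons, X, x-rays), with day 1 on the left, day 3 in the middle and day 7 on the right, and a bar at each group mean. B2m after 1 Gy neutrons at day 7 lies above all controls of that day (8.68 to 8.97 against 7.19 to 8.28), a direction that turned with quantile normalization, normexp and spike-in centring, and 1 mouse at 1 Gy x-rays, day 3, lies far from the rest in Tap2, Psmb10 and Nlrc5.

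A gene was called changed at p below 0.001 and a false discovery rate below 0.05 over all genes, by limma. After 0.25 Gy neutrons, limma called 0 of the 10 at day 1 (0.00622% of all genes), 0 at day 3 (1.54%) and 0 at day 7 (0.547%). At an unadjusted p under 0.05 there were 1, 5 and 2 of the 10, against 15.4%, 24% and 22.9% of all genes. After 1 Gy x-rays, limma called 0 at day 1 (6.46% of all genes), 0 at day 3 (1.55%) and 0 at day 7 (3.74%), with 5, 1 and 1 at an unadjusted p under 0.05, against 32.4%, 18.6% and 25.7% of all genes. The random variance test also called 0 in each of these 6 comparisons. No member had ranges apart from the controls at 0.25 Gy neutrons, day 1 (2.82% of all genes), or at 1 Gy x-rays, day 3 (7.35%) and day 7 (7.41%).

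At the higher doses a few members were called, in a setting where many genes were. After 1 Gy neutrons, limma called 1 of 10 at day 1 (16.3% of all genes) and 2 of 10 at day 7 (36.2%). After 4 Gy x-rays it called 1 of 10 at day 1 (29.3%) and 0 at day 7 (15.8%), where the random variance test called 0 and no member had an unadjusted p under 0.05, against 46.5% of all genes. The median size of the log2 change over the 10 genes was 0.20 after 1 Gy neutrons at day 1 against 0.52 for all genes, and 0.18 at 4 Gy x-rays, day 7 against 0.39. For 1 Gy neutrons at day 7 these were 0.51 and 0.66, and for 4 Gy x-rays, day 1, 0.48 and 0.69. At an unadjusted p under 0.05 there were 3 and 8 of the 10 for neutrons at days 1 and 7 (52.8% and 62.5% of all genes) and 7 for the x-ray dose at day 1 (62%). The ranges of irradiated and control mice failed to overlap for 4 of the 10 at 4 Gy x-rays, day 1 (38.3% of all genes), and for none at day 7 (16.1%). The comparisons of a day share their controls.

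**Figure D2:**
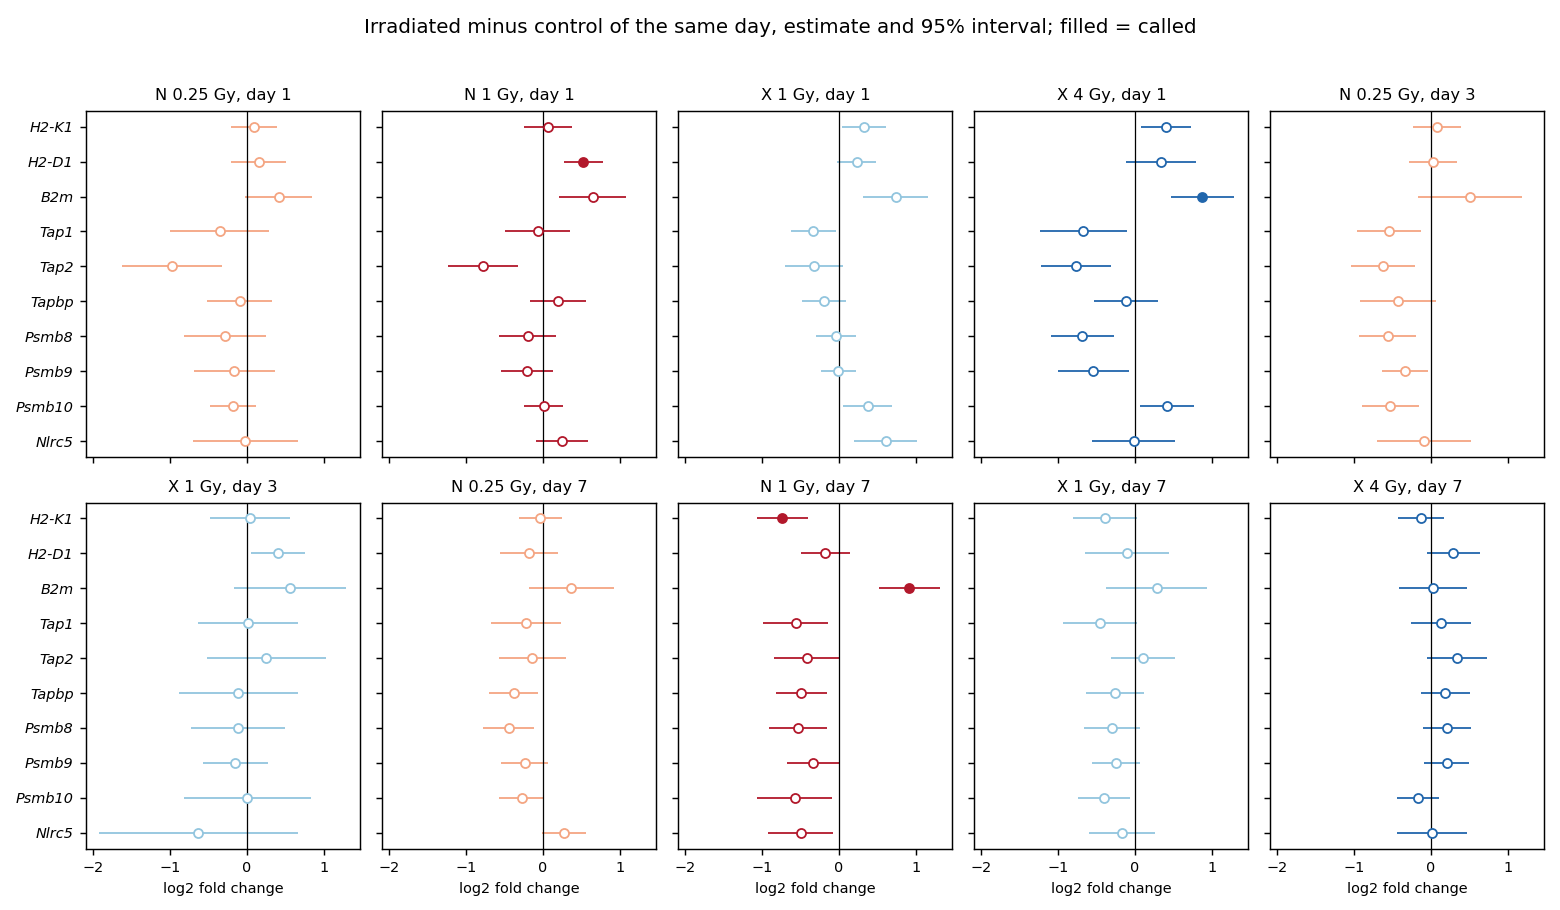
Log2 change of each of the 10 genes against the controls of the day, with 95% confidence intervals from limma, for the 10 exposures with day (N, neutrons, X, x-rays). Filled points mark the called changes: H2-D1 at 1 Gy neutrons, day 1 (0.53), B2m at 4 Gy x-rays, day 1 (0.88), and H2-K1 (-0.74) and B2m (0.92, a direction that turned with quantile normalization, normexp and spike-in centring) at 1 Gy neutrons, day 7.

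H2-K1, the heavy chain from the K locus, was lower at day 7 after 1 Gy neutrons. Its level there was 6.86 in the lowest mouse, 6.98 at the median and 7.61 in the highest, against 7.58, 7.86 and 8.06 in the controls. Replicate 4, at 7.61, was the only irradiated mouse above the lowest control, and the next, at 7.22, was below all controls. The log2 change was -0.74 (SE 0.15), with limma's adjusted p = 0.00118. It was larger with quantile normalization (-1.63), normexp (-2.18, not called) and spike-in centring (-2.77, where the median of all genes was -2.09). A second H2-K1 probe on the arrays gave -0.35 (adjusted p = 0.0703), and the call was also lost without any one of controls 3, 4 or 6 or of irradiated replicates 1, 3, 5 or 6 (log2 changes of -0.84 to -0.69 over the 12 fits without 1 mouse). Of the irradiated arrays only replicate 1 shared a scan date with the controls, and with the date as a block the change was -0.97 (adjusted p = 0.02). At day 1, H2-K1 differed from controls by 0.06 (SE 0.14) after 1 Gy neutrons. At 4 Gy x-rays, day 1 the 5 mice were at 8.05, 8.08, 8.36, 8.25 and 8.26, all above the controls at 8.03, 7.91, 7.76, 7.53 and 7.73, with a log2 difference of 0.41 (SE 0.15, limma's adjusted p = 0.0373), which is not a call. H2-K1 and H2-D1 are both class I heavy chains, and whether their probes share signal was not tested.

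H2-D1, the heavy chain from the D locus, rose at day 1 after 1 Gy neutrons. Levels were 7.20 in the lowest irradiated mouse, 7.26 at the median and 7.46 in the highest, and 6.69, 7.00, 6.70, 6.56 and 6.80 in the 5 controls. All 6 irradiated mice were above all controls. Ranges did not overlap, in one direction or the other, for 19.4% of all genes in that comparison. The log2 change was 0.53 (SE 0.12, limma's adjusted p = 0.00538). The rise was 0.48 to 0.59 in fits without 1 mouse, but the call held only without control 2 or irradiated replicate 3, and was lost without each of the other 9 mice. Without replicate 4, the array that stood apart, it was 0.49 (adjusted p = 0.00879), and 0.54 with a block for scan date (adjusted p = 0.0158). It was 0.81 with quantile normalization, and 1.01 with spike-in centring and 0.58 with normexp, where it was not called. All 8 tested B cell markers (median -2.61), 3 of 9 T cell markers (median -0.94) and 2 of 8 erythroid markers (median -2.29) were lower in this group, and their part in the rise was not tested. At day 7 after 1 Gy neutrons the difference was -0.18 (SE 0.15).

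B2m, the light chain that every class I molecule needs, was higher at 4 Gy x-rays, day 1. The irradiated mice were at 8.94, 8.56, 8.48, 8.99 and 9.26, and the controls at 8.18, 7.85, 7.69, 8.12 and 7.99, without overlap. The log2 change was 0.88 (SE 0.19, limma's adjusted p = 0.0023), and stayed between 0.78 and 0.97 without any 1 mouse. It was no longer called without control 2, 3 or 5 or irradiated replicate 1, 4 or 5, or with normexp (0.47). The irradiated arrays shared no scan date with the controls, so date and exposure cannot be told apart. All 8 tested B cell markers were lower and 2 of 6 tested hepatocyte markers (median 4.21) higher in this group, and their part was not tested. At 1 Gy x-rays, day 1 all 6 mice, at 8.30 to 9.34, were above the controls too (ranges apart in either direction for 8.84% of all genes), with a difference of 0.74 (SE 0.19, adjusted p = 0.0258). After 1 Gy neutrons at day 1 the difference was 0.65 (SE 0.20, adjusted p = 0.0226), with replicate 3 at 7.83 among the controls and the other 5 mice at 8.60 to 8.94. Without replicate 4, whose array stood apart, it was 0.60 (adjusted p = 0.0361), and without replicate 3 it was 0.81 and called (adjusted p = 0.00147).

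B2m was also higher at day 7 after 1 Gy neutrons relative to the median of the arrays, a direction that depended on the scaling. Levels were 8.68 in the lowest mouse, 8.81 at the median and 8.97 in the highest, against 7.19, 8.07 and 8.28 in the controls, with no overlap (34.5% of all genes, in either direction). The log2 change was 0.92 (SE 0.18, limma's adjusted p = 0.000851), and the call held in all 12 fits without 1 mouse (0.78 to 0.99). The sign turned with quantile normalization (-0.35), with normexp background correction (-0.55) and with centring on the spike-in spots (-1.12, where the median of all genes fell by 2.09 on the log2 scale). Before centring, the B2m signal on these arrays was 30533 to 53674, and 54823 to 117199 on the control arrays of the day. With a block for the date, which rests on replicate 1, the change was 0.77 (adjusted p = 0.11). These arrays were the dimmest of the series, and the part of this in the result was not tested.

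The light chain and the K heavy chain parted most at day 7 after 1 Gy neutrons. This pair was chosen after its values were seen, and its 2 genes were those called in opposite directions here. The permutation p-values for it, here and in the other comparisons, do not allow for that choice and only describe the separation. Taken on the same array, so that no scaling of the whole array enters, log2 B2m minus log2 H2-K1 was 1.73 ± 0.27 (SD, n = 6) in these mice and 0.07 ± 0.27 (n = 6) in the controls, and only the difference between groups is read, since the probes differ in brightness. The 6 irradiated mice lay between 1.22 and 2.01 and the controls between -0.38 and 0.41. The difference was 1.66 (exact two-sided permutation p = 0.00216, the smallest possible, and 0.0216 adjusted over the 10 comparisons but not over the pairs of members). With the second H2-K1 probe it was 1.27, with H2-D1 in its place 1.10, with quantile normalization 1.28 and with normexp 1.63, each at an adjusted p of 0.0216. It ranged from 1.57 to 1.76 without any 1 mouse.

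Smaller differences of the same sign were measured after 1 Gy x-rays, where they were 0.68 at day 7 (exact permutation p = 0.00649, adjusted 0.0265, n = 5 against 6) and 0.52 at day 3 (p = 0.00794, adjusted 0.0265, n = 5 against 5). At day 7 the adjusted p was 0.0529 without any one of controls 2 to 6, and 0.108 with the second H2-K1 probe (0.52). At day 3 it was 0.0529 without any 1 irradiated mouse, 0.0794 without control 5, and 0.841 with the second probe (0.13). The other 7 comparisons gave differences of 0.16 to 0.58, with adjusted p from 0.0649 to 0.39. All 10 differences were above 0, but they share the controls of their day. The 1 Gy x-ray arrays shared no scan date with their controls, so date and exposure cannot be told apart there.

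**Figure D3:**
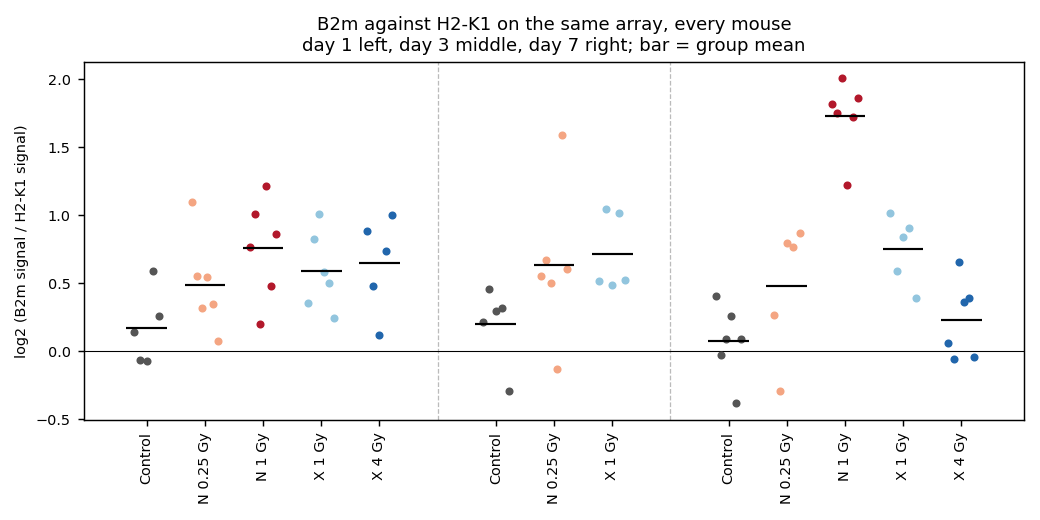
Log2 ratio of the B2m to the H2-K1 signal on the same array (vertical axis) in every mouse by group (N, neutrons, X, x-rays), with day 1 on the left, day 3 in the middle and day 7 on the right, and a bar at each group mean. The 6 mice at 1 Gy neutrons, day 7, lie between 1.22 and 2.01, above the controls of that day at -0.38 to 0.41.

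Tap1 and Tap2 form the transporter, and tapasin bridges it to the heavy chain. None of them was called by limma against controls at any dose or day with all mice, median centring and only the groups compared in the fit. All 3 were called with spike-in centring at day 7 after 0.25 and 1 Gy neutrons, and Tap2 was called at day 1 after 0.25 Gy neutrons with all groups in 1 fit (-0.97, adjusted p = 0.0302), after 1 Gy neutrons with quantile normalization (-1.01) or the slide as a random block (-0.81), and at 4 Gy x-rays with quantile normalization (-1.15) or scan date as a random block (-0.77), and there also without control 4 (-0.89, adjusted p = 0.0033). Tap2 had its lowest group mean after 0.25 Gy neutrons at day 1 (log2 change -0.97, SE 0.30, adjusted p = 0.209), with levels of 1.34 in the lowest mouse, 2.62 at the median and 3.07 in the highest against 3.40, 3.99, 3.59, 2.99 and 3.48 in the controls. The ranges overlapped, and without replicate 5, which stood apart, the change was -0.74 (adjusted p = 0.117). At day 1 Tap2 was also below controls after 1 Gy neutrons (-0.77, SE 0.21, adjusted p = 0.0127) and after 4 Gy x-rays (-0.77, SE 0.21, adjusted p = 0.00854), with overlapping ranges and no call. Without replicate 4 the neutron value was -0.85 (adjusted p = 0.00838).

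Tap1 at day 3 after 0.25 Gy neutrons was below all controls in all 6 mice, where ranges were apart in either direction for 5.69% of all genes. Levels were -2.08 in the lowest mouse, -1.13 at the median and -0.96 in the highest, against -0.58, -0.87, -0.76, -0.82 and -0.69 in the controls. The change of -0.55 (SE 0.19) had limma's adjusted p = 0.124. In the same comparison Tap2 (-0.62), Psmb8 (-0.56), Psmb10 (-0.53), Tapbp (-0.43) and Psmb9 (-0.34) were below zero too, and the median over the 10 members was -0.38 against -0.05 for all genes, at adjusted p of 0.0937 or more. Of the arrays, 2 of the 6 irradiated ones shared the scan date of the controls.

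Of the immunoproteasome subunits that replace the constitutive catalytic ones, Psmb8 lay below all controls at the highest x-ray dose at day 1 without a call. Its levels were 3.14, 2.42, 2.72, 3.14 and 2.81, all below the controls at 3.29, 3.83, 3.62, 3.32 and 3.60. The log2 difference was -0.68 (SE 0.19, limma's adjusted p = 0.00918). Psmb9 differed by -0.54 (SE 0.21, adjusted p = 0.0457), with overlap. Psmb10 stood the other way, at 4.45, 4.79, 4.96, 4.41 and 4.81 against 4.40, 4.37, 4.05, 4.23 and 4.25, above all controls by 0.42 (SE 0.16, adjusted p = 0.0418). At this dose and day all 8 tested B cell markers, 6 of 8 erythroid markers (median -3.88) and 5 of 9 T cell markers (median -1.55) were lower. Of 6 tested hepatocyte markers, 2 were higher (median 4.21). The part of these markers in the values was not tested.

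At day 7, Psmb8 after 0.25 Gy neutrons was at 3.23, 3.13, 3.22, 2.91 and 3.12, below the lowest control at 3.25, where ranges were apart in either direction for 4.9% of all genes (log2 difference -0.45, SE 0.15, limma's adjusted p = 0.125). After 1 Gy neutrons the 3 subunits were below controls without a call: Psmb8 by -0.53 (adjusted p = 0.0196), Psmb9 by -0.34 (0.0772) and Psmb10 by -0.58 (0.044). At 4 Gy x-rays, day 7 they differed from controls by 0.21 (SE 0.14), 0.21 (SE 0.14) and -0.16 (SE 0.13). The ranges of all 3 subunits overlapped with the controls at both exposures. All day 7 controls were scanned on one date and all arrays of 4 Gy x-rays on another, so date and exposure cannot be told apart there.

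Nlrc5, which acts on the class I promoters, was not called by limma in any comparison with all mice and the arrays centred on their median. With spike-in centring it was called at day 7 after 1 Gy neutrons, against controls (-2.53) and against 4 Gy x-rays (-2.73), where the medians of all genes were -2.09 and -2.33. At 1 Gy x-rays, day 1, it was at 2.73 in the lowest mouse, 3.17 at the median and 3.66 in the highest, against 2.30, 2.54 and 2.99 in the controls, with a log2 difference of 0.61 (SE 0.19, limma's adjusted p = 0.0484) and overlapping ranges. After 1 Gy neutrons at day 7 the difference was -0.50 (SE 0.19, adjusted p = 0.0429), and without replicate 4 it was -0.65 and called (adjusted p = 0.00191). At 1 Gy x-rays, day 3, one mouse, replicate 1, was at -0.38 and the other 4 at 2.68, 2.97, 3.18 and 2.28. The difference from controls was -0.63 (SE 0.59) with this mouse and 0.00 without it. The same mouse set the values of Tap2 and Psmb10 there, which were 0.26 and 0.00 with it and -0.08 and -0.38 without it.

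The 1 Gy neutron groups were then set directly against each x-ray dose of the same day. At day 1 limma called 0 of the 10 against 1 Gy x-rays (9.64% of all genes) and 0 against 4 Gy x-rays (0.0311%), with 4 and 3 at an unadjusted p under 0.05 (35.1% and 18.3% of all genes). At day 7 it called 0 against 1 Gy x-rays (20.1% of all genes; 2 at an unadjusted p under 0.05, 56.2% of all genes). The random variance test called 0 in these 3 comparisons as well. In each of them 1 member had ranges that did not overlap: H2-D1 at day 1, higher after neutrons than after 1 Gy x-rays (0.30, adjusted p = 0.0563; 12% of all genes), Psmb10 at day 1, lower than after 4 Gy x-rays (-0.41, adjusted p = 0.213; 2.15%), and B2m at day 7, higher than after 1 Gy x-rays (0.63, adjusted p = 0.0564; 24.6%).

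Against 4 Gy x-rays at day 7, the transporter, tapasin and Psmb8 were lower after 1 Gy neutrons and B2m was higher, a direction that turned under 3 other scalings for B2m and under normexp for Tap1. Limma called 5 of the 10, 4 lower and 1 higher, where 37.4% of all genes were called (14.6% lower and 22.7% higher), 8 had an unadjusted p under 0.05 (67.2% of all genes), and the median log2 difference over the 10 was -0.58 against -0.11 for all genes. The ranges of these 5 did not overlap, where this held in either direction for 37.8% of all genes. In size the members were near the rest, with a median of 0.64 against 0.66 over all genes.

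Tap1 was at -1.60 in the lowest mouse, -1.06 at the median and -0.94 in the highest after neutrons, and at -0.65, -0.48 and -0.13 after x-rays (log2 difference -0.69, SE 0.14, limma's adjusted p = 0.00105). Tap2 was at 2.24, 2.53 and 2.99 against 3.01, 3.32 and 3.59 (-0.75, SE 0.16, adjusted p = 0.00138). Tapbp was at 1.98, 2.15 and 2.45 against 2.63, 2.80 and 3.12 (-0.68, SE 0.14, adjusted p = 0.000841). In all 3 genes every neutron mouse was below every x-ray mouse, by the least in Tap2. Psmb8 was at 2.71, 2.95 and 3.45 against 3.65, 3.77 and 3.91 (-0.75, SE 0.14, adjusted p = 0.000577). B2m was at 8.68, 8.81 and 8.97 against 7.48, 7.93 and 8.30 (0.89, SE 0.15, adjusted p = 0.000196). Among the others, Psmb9 overlapped in part (-0.55, adjusted p = 0.00607), and H2-K1 (-0.61, adjusted p = 0.00521), H2-D1 (-0.47, adjusted p = 0.00822), Nlrc5 (-0.51, adjusted p = 0.108) and Psmb10 (-0.41, adjusted p = 0.0986) were not called.

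The calls of B2m, Tap1, Tapbp and Psmb8 held in all 12 fits without 1 mouse. Without neutron replicate 4, H2-K1 (-0.71, adjusted p = 0.000865) and Psmb9 (-0.64, adjusted p = 0.00112) were called as well. That of Tap2 was lost without neutron replicate 1, 2 or 3 or x-ray replicate 1, 2 or 5 (-0.84 to -0.69 over the 12 fits). Tap2, Tapbp and Psmb8 were lower after neutrons under quantile normalization (-0.99, -0.85 and -1.05), normexp (-1.53, -1.37 and -1.60) and spike-in centring (-2.97, -2.89 and -2.96, where the median of all genes fell by 2.33 on the log2 scale), while Tap1 was -0.74, 0.02 and -2.91 and B2m turned to -0.82, -0.43 and -1.33. Of the neutron arrays only replicate 6 was scanned on the date of the x-ray arrays. With a block for the date, which rests on that array, the differences were -0.50 for Tap1, -0.65 for Tap2, -0.56 for Tapbp, -0.76 for Psmb8 and 0.85 for B2m, none of them called. Of the cell markers, 4 of 8 B cell markers (median 0.78) and 3 of 8 erythroid markers (median 1.06) were higher and 3 of 7 natural killer cell markers (median -0.46) lower after neutrons here. Their part in the result was not tested.

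**Figure D4:**
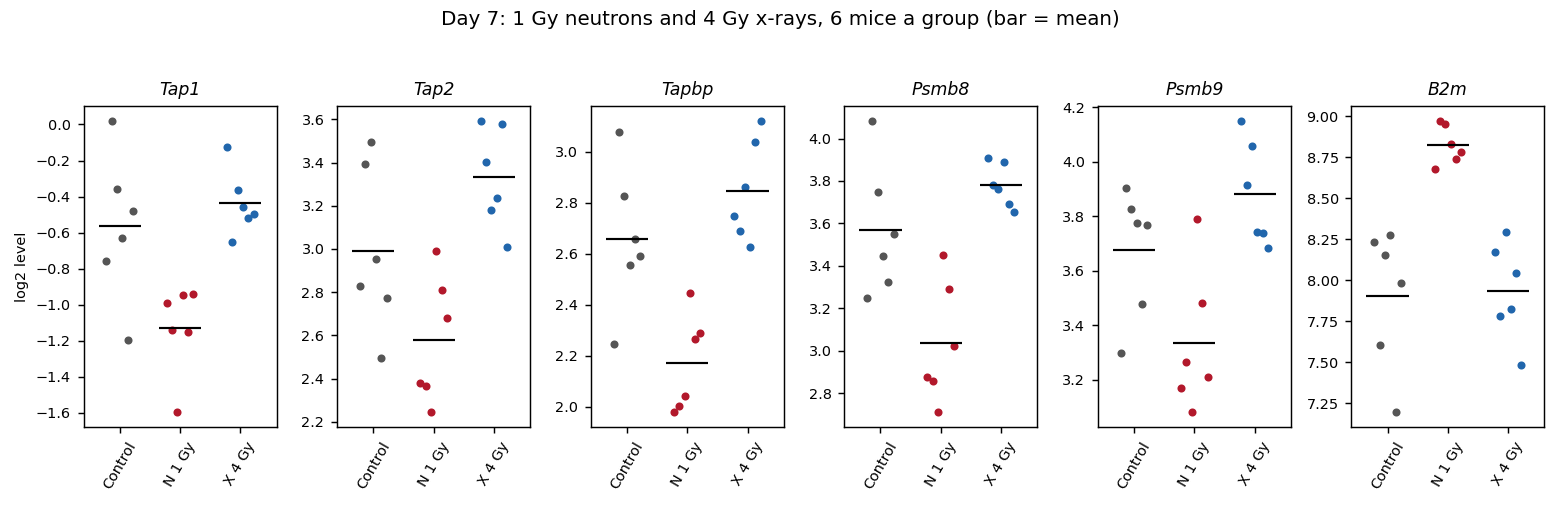
Levels at day 7 (log2 signal minus the median of the array, vertical axis) of Tap1, Tap2, Tapbp, Psmb8, Psmb9 and B2m in the 6 controls, the 6 mice after 1 Gy neutrons (N) and the 6 after 4 Gy x-rays (X), with a bar at each group mean. In every panel but Psmb9 all neutron mice lie on one side of all x-ray mice, below in Tap1, Tap2, Tapbp and Psmb8 and above in B2m, a direction that turned with quantile normalization, normexp and spike-in centring for B2m and with normexp for Tap1.

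Whether an effect differed between the days was tested as the day 7 change minus the day 1 change in 1 fit of 4 groups. For 1 Gy neutrons, limma called 2 of the 10 (24.1% of all genes), both heavy chains. H2-K1 went from 0.06 at day 1 to -0.74 at day 7 (difference -0.80, SE 0.20, adjusted p = 0.0032), and H2-D1 from 0.53 to -0.18 (difference -0.71, SE 0.18, adjusted p = 0.00327). For 4 Gy x-rays it called 2 of the 10 (19.8%). Tap2 went from -0.77 to 0.34 (difference 1.11, SE 0.27, adjusted p = 0.00334) and Psmb8 from -0.68 to 0.21 (difference 0.90, SE 0.22, adjusted p = 0.00368). For 0.25 Gy neutrons and 1 Gy x-rays limma and the random variance test called 0 (0.752% and 7.19% of all genes), with 1 and 3 at an unadjusted p under 0.05 (15.7% and 32%), and for the higher doses these were 5 (52.7%) and 7 (50.1%).

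These calls were near the threshold. Leaving out 1 mouse of 23 in turn ended the call of H2-K1 in 14 fits and of H2-D1 in 17, and leaving out 1 of 22 ended that of Tap2 in 12 and of Psmb8 in 14. The directions held, with differences of -0.91 to -0.74 for H2-K1, -0.81 to -0.64 for H2-D1, 0.98 to 1.23 for Tap2 and 0.79 to 1.00 for Psmb8. With median centring, other members were called only without 1 mouse: Nlrc5 for 1 Gy neutrons without day 7 replicate 4 (-0.91), Psmb9 for 4 Gy x-rays without day 1 replicate 4 (0.91), B2m there without day 7 control 5 (adjusted p = 0.00434), and Psmb10 for 1 Gy x-rays without day 1 replicate 2 or 4, day 7 replicate 1 or day 7 control 1 (-0.86 to -0.83). Neither heavy chain was called once scan date was a block (limma's adjusted p = 0.0239 for H2-K1 and 0.0758 for H2-D1). For 4 Gy x-rays the controls and irradiated arrays were scanned on different dates at day 1 as at day 7, which cannot be told apart from exposure. The differences were larger with quantile normalization (-1.95 for H2-K1, -1.74 for H2-D1, 1.52 for Tap2 and 1.33 for Psmb8), and for the heavy chains with spike-in centring (-3.32 and -3.22, where the median of all genes was -2.61).

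Within groups, part of the pairs of the 10 genes varied together from mouse to mouse. With the group means removed, Pearson's r was computed for the 45 pairs over the 72 mice, with permutation of mice within groups (100000 resamples, two-sided). Of the 45, 26 had r and Spearman's rho past 0.05 after adjustment over the pairs, 24 of them positive and 2 negative. Values of r ranged from -0.46 to 0.88 with a median of 0.39. Pairs of other genes were not computed, so these values do not set the members apart from genes in general. The strongest was Tap2 with Psmb8 (r = 0.88, rho = 0.83), neighbours on chromosome 17, followed by Psmb8 with Psmb9 (0.82, rho = 0.76), Tap1 with Psmb8 (0.81) and Tap1 with Psmb9 (0.78, rho = 0.65), which share the stretch shown above, each with a permutation p = 1e-05, the smallest possible (adjusted 3.46e-05). All 26 kept their sign without the 2 farthest mice, and within group and scan date.

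The pairs were sorted into 2 sets, which were drawn after the values were seen, so higher r within than between the sets is built in by that choice. Among Tap1, Tap2, Tapbp, Psmb8, Psmb9 and Psmb10 the 15 pairs had r from 0.39 to 0.88 (median 0.69). Among H2-K1, H2-D1, B2m and Nlrc5 the 6 pairs had r from 0.42 to 0.68 (median 0.55), with H2-K1 and Nlrc5 highest (rho = 0.63). Between the sets the 24 pairs had r from -0.46 to 0.59 (median -0.12). Tapbp ran against B2m (r = -0.46, rho = -0.39, permutation p = 0.00082, adjusted 0.0016) and against H2-K1 (r = -0.38, rho = -0.33, p = 0.0121, adjusted 0.0209). H2-D1 went with both sets (0.55 with Tap1, 0.59 with Psmb9). Under normexp r ranged from -0.21 to 0.96 within the first set, from 0.76 to 0.92 within the second and from -0.52 to 0.91 between them. The split into sets thus depended on the background correction, and both negative pairs turned positive (0.47 and 0.67). Under quantile normalization the ranges were 0.48 to 0.89, 0.35 to 0.61 and -0.43 to 0.62. Values of 1 mouse share an array and a blood sample, so cell makeup and array quality enter every pair.

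**Figure D5:**
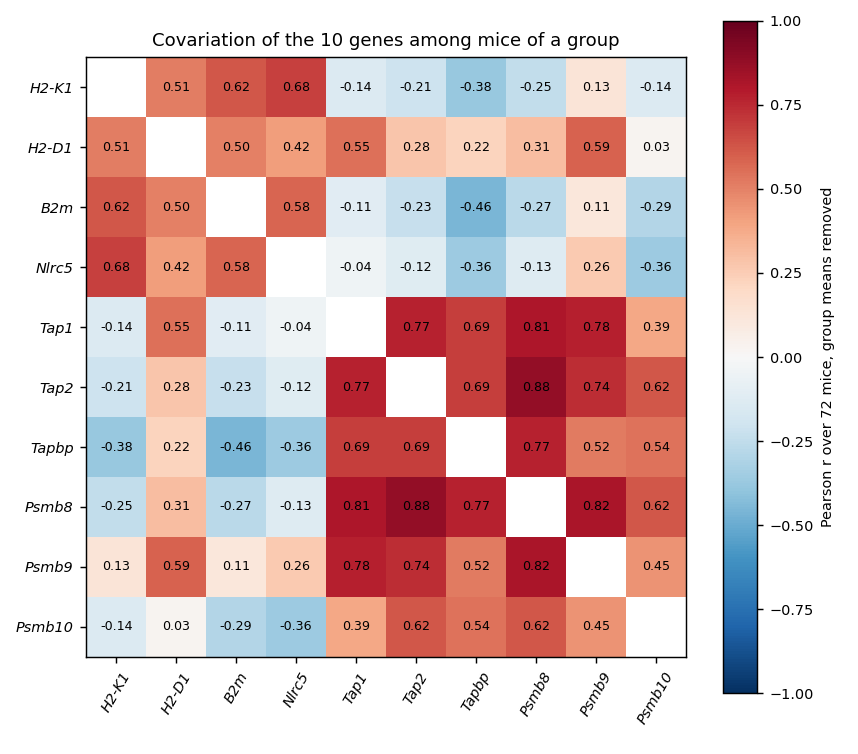
Pearson's r between each pair of the 10 genes over 72 mice after removal of the group means (colour and number in each cell, from -1 to 1). The 2 blocks along the diagonal, H2-K1 to Nlrc5 (0.42 to 0.68) and Tap1 to Psmb10 (0.39 to 0.88), were drawn after the values were seen. They are positive throughout with median centring, but the second is not under normexp. B2m with Tapbp is lowest at -0.46.

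Outside the members, the genes whose mean level over the 13 groups was most like the mean of the 10 were Pdlim2 (Pearson's r = 0.95), G6pc3 (0.88), Tomm22 (0.88), Jmjd7 (0.88) and 2410016O06Rik (0.87), as a description over 13 group means that share arrays with the members. The mean of the members was highest at 1 Gy x-rays, day 1 (4.38) and lowest after 1 Gy neutrons at day 7 (3.84).

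Other genes of the pathway were taken from 4 lists. The values of these genes are for median centring only. Other scalings, a block for scan date and fits without 1 mouse were not examined for them. Of the class Ib and other heavy chains, 18 of 23 were tested, of the peptide loading and trimming genes 11 of 11, of the proteasome activator, assembly and constitutive genes 6 of 8, and of the class I regulators 16 of 17. At the lower doses (0.25 Gy neutrons and 1 Gy x-rays) limma called 0 of these 51 genes at any day. Of all genes, 0.00622 to 1.54% were called there after neutrons and 1.55 to 6.46% after x-rays. At 1 Gy neutrons, day 1, the heavy chain list had 1 higher and 1 lower, loading 0, proteasome 1 higher and regulators 3 lower, where 16.3% of all genes were called. H2-Q7 rose by 0.52 in log2 terms and H2-M3, which presents bacterial formyl peptides, changed by -0.87. Psmb7, a constitutive catalytic subunit, rose by 0.70, and the interferon regulatory factor Irf8 (-1.19), Creb1 (-0.99) and Nfkb1 (-0.84) fell.

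At 4 Gy x-rays, day 1, 5 of 18 heavy chains, 2 of 11 loading and 3 of 6 proteasome genes were higher and none lower, while 3 of 16 regulators were lower and none higher, where 29.3% of all genes were called. The nonclassical H2-T3 (4.11), H2-Q10 (3.54) and the lipid-presenting Cd1d1 (2.53) rose most among the heavy chains, with all 5 mice above all controls. H2-Q10 is secreted chiefly by the liver, and the 6 tested hepatocyte markers had a median change of 4.21 there, 2 of them called. Their summed level was 11.3 to 11.9 in these 5 mice and 4.22 to 10.7 in the controls, and its part in the values of the lists was not tested. Alb, Apoa1, Ttr and 4 more of the 13 markers were not among the genes tested. Among loading genes the translocon subunit Sec61a1 (1.18) and the chaperone Hspa5 (1.08) rose. The proteasome assembly factor Pomp (2.83-fold) and the constitutive Psmb6 (1.26) and Psmb5 (1.12), the counterparts that Psmb9 and Psmb8 replace, rose as well, whereas Psmb9 and Psmb8 themselves were at -0.54 and -0.68 without a call. Irf8 (-1.89), Creb1 (-1.48) and Rfxank (-0.73) fell.

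At day 7 after 1 Gy neutrons, 1 heavy chain was higher and 3 lower, 1 loading gene higher, 1 proteasome gene higher and 1 lower, and 1 regulator higher, where 36.2% of all genes were called. Relative to the median of the arrays, H2-T24 (1.76), the translocon subunit Sec61b (0.62), the nuclear proteasome activator Psme3 (1.98) and the class I and II promoter factor Rfxank (0.79) rose. Cd1d1 (-1.27), the vitamin-metabolite presenter Mr1 (-1.26) and Psmb6 (-0.91) fell. With spike-in centring the median of all genes fell here by more than any of these rises, and the list genes were not examined under it. At 4 Gy x-rays, day 7 the lists gave 1 heavy chain, 2 loading genes and 1 proteasome gene higher and 2 regulators lower, where 15.8% of all genes were called. The loading chaperones Pdia3 (1.23) and Calr (1.11), H2-Q5 (0.81) and Psmb7 (0.79) rose, and Rfxank fell (-0.74).

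Between 1 Gy neutrons and 4 Gy x-rays at day 7, 5 of 11 loading genes were lower and none higher, 7 of 18 heavy chains lower and 1 higher, and 4 of 6 proteasome genes lower and 1 higher, where 37.4% of all genes were called. The aminopeptidase Erap1, which trims peptides for class I (-1.12), calnexin, Canx (-1.04), and Pdia3 (-0.98) were lower after neutrons, as were Mr1 (-1.58) and the neonatal Fc receptor Fcgrt (-1.26). The constitutive Psmb6 (-0.94) and Psmb7 (-0.62) were lower too, and H2-T24 (1.85), Psme3 (1.65) and Rfxank (1.52) were higher. With spike-in centring the median of all genes fell by more than any of these differences, and the list genes were not examined under it. The median over the loading list was -0.69 and over the heavy chains -0.59, against -0.11 for all genes.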

How the data were processed

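Whole-blood RNA of 72 mice was measured on 1-colour Agilent 4x44K arrays on 19 slides, scanned on 7 dates. The deposited spot intensities were made by the authors with Agilent Feature Extraction (12.0.2 in the submitters' processing notes), which subtracted background. Per the methods, the authors then median-normalized them in BRB-ArrayTools as log2 values and tested classes with a random variance t-test. In the deposited log2 table, 60 of 72 columns followed another array than their own, 21 of them an array of another group. Which labels are right is not known, and all comparisons here rest on the labels of the per-array files. The table was used only for 0.25 Gy neutrons at day 1, over mice whose columns matched (0 members called). Its column medians were 8.326 to 8.368.

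Here log2 processed signals were centred on the median of the 19808 detected probes, spots of a probe were averaged, and the brightest detected probe of each of 16086 genes was tested with limma 3.58.1 in R 4.3.3 over the groups compared, with Benjamini-Hochberg adjustment. Calls needed p below 0.001 and a false discovery rate below 0.05. The methods' variation filter (1.5-fold, 20% of arrays) removed 9 members and was kept as an alternative. Replicates are single mice of a group. Members and lists were chosen with earlier results of these data known. Named were all members, called genes with the largest changes per pathway list (3 at most a comparison), and the 5 genes most like the members. An item under this rule is not reported here, and pathway genes of the tests between days are not named. Other alternatives were the scaling, background correction, probe choice, blocks and leaving out each mouse. The code was tested on simulated data.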

Additional observations from a re-analysis of the deposited data

Results flagged for a closer look

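Of 130 sets of a gene in a group, 10 held 1 mouse far from the others, where chance gives about 1 in 20. At 1 Gy x-rays, day 3, replicate 1 stood apart in Tap2 (4.84, others 2.84 to 3.38), Psmb10 (6.15, others 3.98 to 4.41) and Nlrc5 (-0.38, others 2.28 to 3.18). At 0.25 Gy neutrons, day 1, replicate 5 was low in Tap1 (-2.09, others -0.84 to -0.32) and Psmb9 (2.42, others 3.35 to 3.86). These 2 arrays also stood apart over all genes. The other single mice were replicate 4 at 1 Gy neutrons, day 1, in H2-D1 (7.46, others 7.20 to 7.29), replicate 3 there in B2m (7.83, others 8.60 to 8.94), replicate 5 of the day 3 controls in B2m (7.11, others 8.10 to 8.29), replicate 5 at 0.25 Gy neutrons, day 3, in Tap1 (-2.08, others -1.36 to -0.96) and replicate 3 at 1 Gy neutrons, day 7, in Tap1 (-1.60, others -1.15 to -0.94).

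Of 40 tests of whether an effect differed between days 7 and 1, limma called 4: H2-K1 (-0.80) and H2-D1 (-0.71) after 1 Gy neutrons, and Tap2 (1.11) and Psmb8 (0.90) at 4 Gy x-rays.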

How the results depend on the processing

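Of the 13 called values, 13 were kept with the random variance test, 12 with the mean of a gene's probes, 11 with quantile normalization, 10 with the slide as a random block, 8 with 75th percentile centring, no filter on dim probes or spike-in centring, 6 with all groups in 1 fit, 3 with the scan date as a block and none with normexp. The cause was not tested. All 10 values for which the date could be a fixed block lost their call, and the 3 kept had it only as a random block, with an estimated correlation near 0 (-0.0812 and -0.000638). Signs turned for B2m after 1 Gy neutrons at day 7 (quantile -0.35, spike-in -1.12, normexp -0.55), for B2m against 4 Gy x-rays (-0.82, -1.33 and -0.43), for Tap1 there (normexp 0.02), and between days 7 and 1 of 1 Gy neutrons for B2m (quantile -1.28, spike-in -2.25) and Tap2 (spike-in -2.16).

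The counts of members called moved as follows. They are not set against the share of all genes called under the same setting, which also moved. The counts therefore do not set the members apart from other genes. With spike-in centring at day 7 after 1 Gy neutrons, the median of all genes fell as well. For 1 Gy neutrons, day 1, 1 became 3 with quantile, 2 with slide and 0 with 75th percentile, normexp, no filter, the variation filter, all groups or scan date. For 4 Gy x-rays, day 1, 1 became 4 with quantile, 3 with scan date and 0 with 75th percentile, normexp, no filter or the variation filter. For 1 Gy neutrons, day 7, 2 became 9 with spike-in, 1 with mean probes, slide or the variation filter and 0 with normexp or scan date. Against 4 Gy x-rays at that day, 5 became 10 with spike-in, 9 with quantile, 3 with slide, 1 with the variation filter and 0 with normexp or scan date. Between days, 2 for 1 Gy neutrons became 10 with spike-in, 1 with all groups and 0 with 75th percentile, normexp, no filter, the variation filter or scan date, and 2 at 4 Gy x-rays became 1 with no filter and 0 with normexp, all groups, spike-in or the variation filter. Counts of 0 became 8 (0.25 Gy neutrons, day 7), 4 (1 Gy x-rays, day 7), 3 (1 Gy x-rays, between days) and 2 (0.25 Gy neutrons, between days, and 1 Gy neutrons against 1 Gy x-rays, day 7) with spike-in, 2 with slide (1 Gy neutrons against 4 Gy x-rays, day 1), and 1 with all groups (0.25 Gy neutrons, day 1), scan date (1 Gy x-rays, day 3), quantile (1 Gy x-rays, day 1 and between days, and neutrons against 1 Gy x-rays, day 7) or normexp (the last, and 0.25 Gy neutrons between days).

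Without 1 mouse, counts ranged from 0 to 2 at day 1 for 1 Gy neutrons as for x-rays of 4 Gy, 1 to 3 for 1 Gy neutrons at day 7, 4 to 7 against 4 Gy x-rays, 0 to 3 between days for both, and 0 to 1 for 1 Gy x-rays between days.

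No comparison had every same-numbered pair of mice varying together (r of pairs from -0.533 to 0.641), so the numbers were not taken to pair them. With the replicate block, 1 of the 13 values was kept, B2m of 1 Gy neutrons against 4 Gy x-rays at day 7 (0.89, limma's adjusted p = 0.00253), with 1 member called there and 0 elsewhere.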

Other observations

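At 1 Gy x-rays, day 3, replicate 1 was at 7.19 in H2-K1, 0.40 in Tap1, 3.62 in Tapbp, 4.41 in Psmb8 and 4.05 in Psmb9. At day 7 of the same dose, replicate 5 was lowest of its group in H2-K1 (6.76), H2-D1 (5.53), B2m (7.15), Nlrc5 (1.75), Tap1 (-1.57) and Tapbp (2.01) and highest in Tap2 (3.40).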
